A study of Mus musculus with 6 samples.

Results

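The Hox genes of clusters A to D were followed in cells of the mouse intermediate mesoderm, sorted by EGFP from embryos at E11.5. The members were all genes whose platform symbol is Hoxa, Hoxb, Hoxc or Hoxd with a number, on probe sets with exactly 1 symbol. This gave 33 genes on 48 probe sets, of 18194 genes tested, with 9 genes in cluster A, 9 in B, 7 in C and 8 in D. RefSeq lists 39 Hox genes, of which 6 are not analysed here. There were 3 samples from Pax2 heterozygotes, whose titles give EGFP/+, and 3 from Pax2 nulls, whose titles give EGFP/EGFP. All 6 samples thus carried at least 1 EGFP allele and were sorted on its signal, so cells without that signal were not measured, and no wild-type sample was included. The labels do not say where the EGFP sequence lies. Strain, litter and the number of embryos per sample are not in the labels, and the p-values rest on variation among 6 arrays that may in part be technical. The comparison addresses the dependence of gene expression on Pax2, a transcription factor of the developing kidney.

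Hox genes encode homeodomain transcription factors that give cells their position along the head-to-tail axis. In each cluster the genes lie in the order of their paralogue numbers, and low numbers are generally active earlier and further towards the head than high numbers. In the kidney field, paralogues of group 11, which can replace each other, act together with Eya1 and Pax2 in the metanephric mesenchyme to turn on Six2 and Gdnf, and group 10 genes are needed in the kidney stroma. Groups 12 and 13 pattern the digits, the end of the gut and the urogenital outlet.

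Values are deposited log2 intensities, and a change is the null mean minus the heterozygote mean. Array medians lay between 6.12 and 6.24, and arrays of a genotype correlated at 0.976 to 0.991 over all probe sets. The bacterial spike-in controls matched the arrays into 3 pairs, each with 1 array of each genotype. In pairs 1, 2 and 3, heterozygotes 1, 2 and 3 were matched by null 3, null 1 and null 2, in that order. This pairing comes from the data, not from the labels. All 11 listed markers of intermediate mesoderm and kidney lay above the 33rd percentile of probe sets (4.81), below which values are called dim here. These markers were lower in null, with 6 of 11 falling (0.583% of all genes fell and 0.808% rose in limma) and a summed linear level of 9702 to 12403 in heterozygotes and 4655 to 6045 in nulls. Among 10 stromal markers 6 rose and 1, Meox2, fell, and their summed level was 3786 to 4766 against 7543 to 8686. Summed levels of macrophage (8 markers, 0 called in limma and 5 higher at an unadjusted p under 0.05, against 5.08% of all genes, 622 to 1255 against 1323 to 3219), gonad and adrenal (6 markers, 1 rose, 571 to 578 against 1180 to 1455) and hindgut and endoderm markers (6 markers, 2 rose, 159 to 212 against 1142 to 1301) were also higher in null. Dim members were Ptprc among the macrophage markers and Cdx2, Foxa1 and Sox17 among the hindgut and endoderm markers. The 2 hindgut and endoderm markers that rose were Trp63 and Foxa2. Trp63 had the highest null mean of the 6, 9.67 against 5.47 in heterozygotes. The other members had changes from -0.054 (Sox17) to 1.43 (Shh) and passed in neither fit. Neuronal markers overlapped (10 markers, 1 rose and 1 fell, 1666 to 2167 against 1541 to 2187, with Gad1, Gad2 and Lhx5 dim). This list shares Pax8 with the kidney list. Pax8 had the highest heterozygote mean of the 10, 9.47 against 8.27 in nulls, so its lower value entered both sums. Somite and limb bud markers ran from 422 to 662 against 669 to 851, with 0 of 9 called in limma, 1 at an unadjusted p under 0.05, and Myf5, Pax1, Pax3, Tbx4 and Tbx5 dim. That 1 was Prrx1, the brightest of the list, with a change of 0.69 ± 0.26. The other members had changes from -0.19 to 0.056. The part of these cell types in the Hox values was not tested, and in sorted bulk samples fewer cells of a type and less RNA per cell cannot be told apart.

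The Hox genes did not share a direction. Cluster D was lower in null in all 8 genes (though Hoxd9, Hoxd11 and Hoxd13 turned positive under some alternatives), cluster C was higher in 5 of 7, cluster B lay mostly near 0, and cluster A was higher in groups 2 to 7 and lower in groups 9 to 11. The largest differences were a lower Hoxd1 and a higher Hoxc5. None of the 33 genes passed in limma over all genes (0 higher and 0 lower at an adjusted p under 0.05), where 0.808% of all genes passed higher and 0.583% lower. At an unadjusted p under 0.05, 7 Hox genes were higher and 8 lower, against 5.08% and 4.65% of all genes. The 3 arrays of each genotype did not overlap for 7 genes higher in null and 5 lower, where 6.49% and 7.16% of all genes had such arrays.

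With the array pair as a block, 2 Hox genes rose, Hoxc5 and Hoxa4, and 3 fell, Hoxd1, Hoxa11 and Hoxd12 (limma, adjusted p under 0.05). In that fit 2.65% of all genes rose and 1.88% fell. The ± of a change is its SE without the block, also where an adjusted p with the block follows. The direction of the 33 changes was negative in 20 and positive in 13, with a median of -0.10 against -0.019 over all genes tested. The Hox median was 0.011 when each probe set counted once and -0.057 without heterozygote 2. The median size of the changes, without sign, was 0.40 for Hox genes and 0.15 for all genes.

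**Figure D1:**
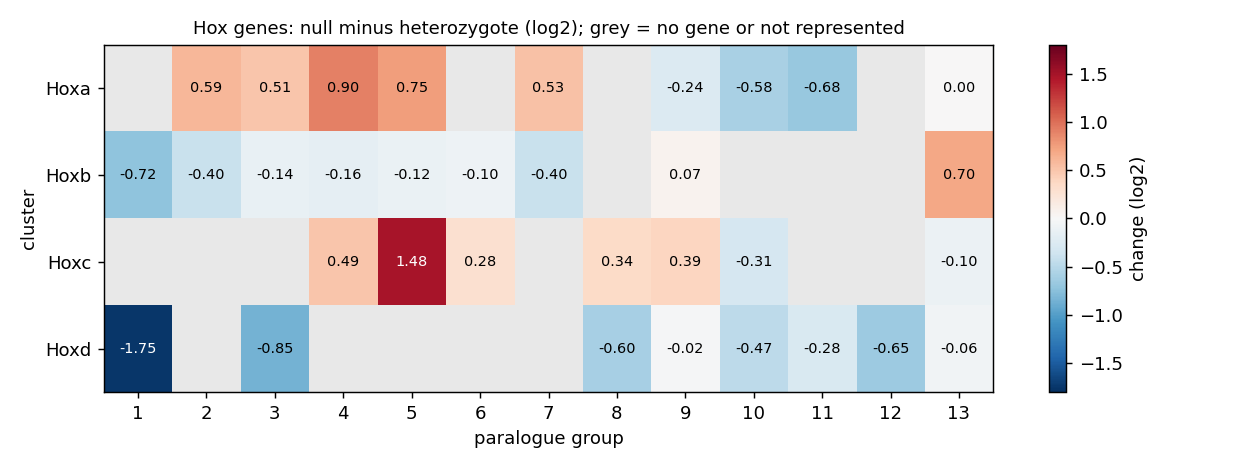
Change from heterozygote to null (log2) for each of the 33 Hox genes, with clusters in rows and paralogue groups in columns; red is higher in null, blue lower, and grey marks positions with no gene or none represented. Hoxd1 at -1.75 and Hoxc5 at 1.48 stand at the ends of the scale, the Hoxd row holds only negative values, and the Hoxa row turns from positive to negative between groups 7 and 9.

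Cluster D had a median change of -0.53, and 7 of its 8 genes were lower within all 3 array pairs. Over all 18194 genes tested, 4268 were lower within all 3 pairs and 3476 higher. Hoxd1, a group 1 gene best known from the developing nervous system, had the largest difference of all Hox genes. It stood at 8.70, 7.64 and 8.25 on heterozygote arrays 1 to 3 and at 6.42, 5.92 and 6.996 on null arrays 1 to 3 (log2). Every null array lay below every heterozygote array. The means were 8.20 ± 0.53 and 6.44 ± 0.54 (SD, n = 3 each), a change of -1.75 ± 0.34 (SE), or 3.37-fold lower. This missed the threshold narrowly (adjusted p = 0.0585 in limma) and passed in the blocked fit (adjusted p = 0.0166), with within-pair differences of -1.71, -1.22 and -2.33. Over the alternatives its adjusted p ran from 0.0166 to 0.191, and it also passed with the intensity-dependent prior (adjusted p = 0.0408), with dim genes left out (0.0387), with gene values averaged over probe sets (0.0429) and without null 3 (0.0468). Hoxd1 has 1 probe set, so the prior, the filter and the averaging left its own change as it was.

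Hoxd12, a group 12 gene of the posterior end of the cluster, stood at 6.90, 7.54 and 7.55 on the heterozygote arrays and at 6.67, 7.03 and 6.34 on the null arrays. Heterozygote 1 lay below null 2, so the genotypes overlapped, yet within each pair the null array was lower, by -0.56, -0.87 and -0.52. The change of -0.65 ± 0.25 did not pass in limma (adjusted p = 0.415) and did with the block (adjusted p = 0.0483). It no longer passed when single probe sets were tested with the block (adjusted p = 0.0968), with 0.0483 to 0.812 across the alternatives.

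Hoxd8, a central gene of the cluster, read 10.54, 10.63 and 10.42 in heterozygotes and 10.19, 9.64 and 9.96 in nulls, with no overlap. Its change of -0.60 ± 0.18 did not pass (adjusted p = 0.240 in limma, and 0.0547 with the block), and the other of its 2 probe sets gave -0.73 ± 0.29. Hoxd10, a group 10 gene, read 9.83, 10.05 and 9.97 against 9.70, 9.08 and 9.65, again with no overlap and a change of -0.47 ± 0.20 (adjusted p = 0.511 in limma). Null 2 was the lowest array for both genes. Hoxd3 had a change of -0.85 ± 0.36 that came mostly from pair 3, with within-pair differences of -0.25, -0.49 and -1.82, and its arrays overlapped.

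Hoxd11, which with Hoxa11 is required for kidney outgrowth, read 10.29, 11.38 and 11.47 in heterozygotes and 11.11, 10.99 and 10.20 in nulls. Both arrays of pair 1 were about a log2 unit below the others, a gap larger than the genotype difference of -0.28 ± 0.37 (adjusted p = 0.974 in limma). Within pairs the null array was lower each time, by -0.086, -0.27 and -0.48, and with the block the gene did not pass either (adjusted p = 0.291). Without null 3 the change was 0.0065. Hoxd9 read 11.04, 11.09 and 10.83 against 11.07, 10.82 and 11.02, and its change of -0.017 ± 0.16 was smaller than the spread within either genotype. Hoxd13, the last gene of the cluster, read 5.62, 5.73 and 6.09 against 5.34, 5.90 and 6.02, and its 2 probe sets differed in sign (-0.058 and 0.15).

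**Figure D2:**
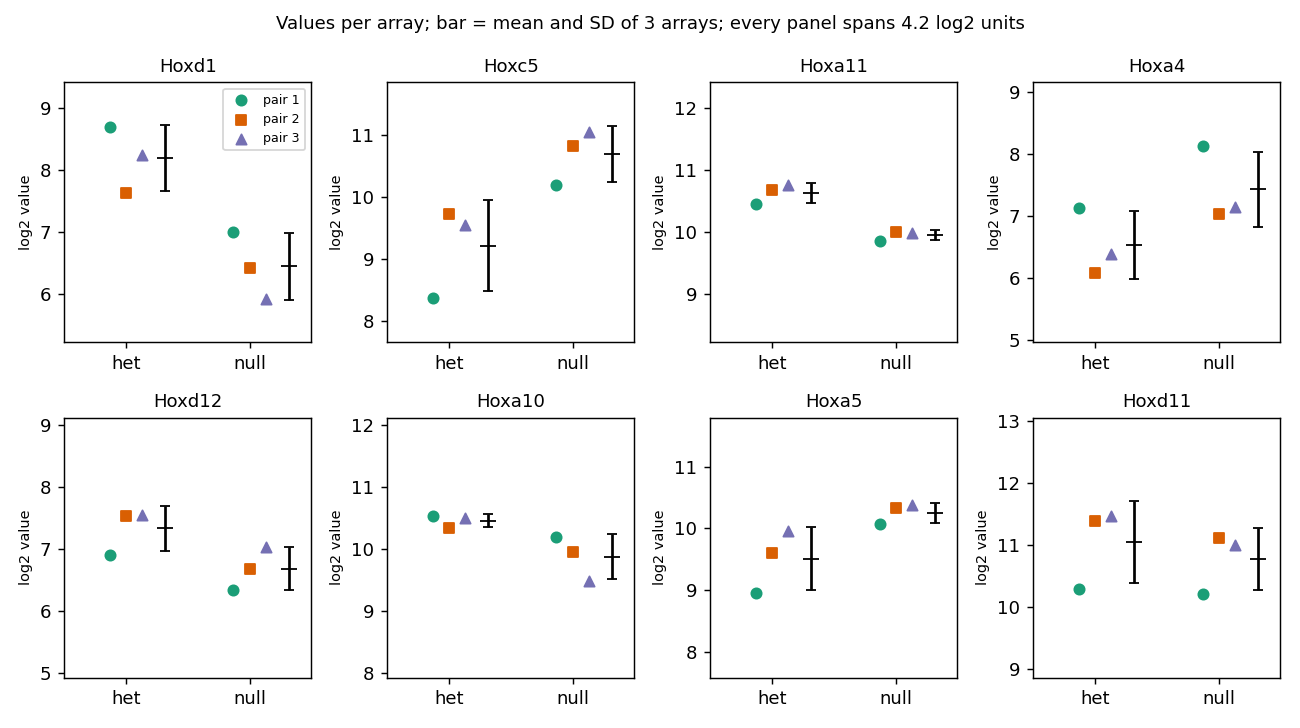
Log2 value of 8 Hox genes on each array, with heterozygotes on the left and nulls on the right of each panel; colour and symbol give the array pair, and the bar shows the mean and SD of 3 arrays. The genotypes separate for Hoxd1, Hoxc5, Hoxa11, Hoxa10 and Hoxa5, whereas for Hoxa4, Hoxd12 and Hoxd11 they overlap, and within each genotype the array of pair 1 is the highest for Hoxa4 and the lowest for Hoxd12 and Hoxd11.

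In cluster A the sign of the change turned between groups 7 and 9. On the posterior side, Hoxa11, a group 11 regulator of the metanephric mesenchyme, read 10.45, 10.67 and 10.76 in heterozygotes and 10.00, 9.98 and 9.85 in nulls. Every null array was lower, the means were 10.63 ± 0.16 and 9.95 ± 0.081 (SD, n = 3 each), and the difference of -0.68 ± 0.16 corresponds to a 1.60-fold lower value. It did not pass in limma without the block (adjusted p = 0.103) and fell with it (adjusted p = 0.0295), with within-pair differences of -0.60, -0.67 and -0.78 and an adjusted p from 0.0295 to 0.339 across the alternatives. Among single probe sets with the block its adjusted p was 0.0660.

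Hoxa10, which lies beside Hoxa11, read 10.52, 10.34 and 10.50 against 9.94, 9.48 and 10.20. Its arrays did not overlap, but the change of -0.58 ± 0.21 did not pass without or with the block (adjusted p = 0.359 in limma and 0.137), and its other probe set gave -0.35 ± 0.42. Hoxa9 had a change of -0.24 ± 0.18, and its 2 probe sets differed in sign (-0.24 and 0.021). Hoxa13, a group 13 gene of the outlet and digits, was dim on every array, with 4.42, 4.03 and 4.14 against 4.14, 4.14 and 4.33, so its difference near 0 says little.

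Hoxa11os, a noncoding RNA transcribed from the opposite strand beside Hoxa11, was in a list of cluster noncoding RNAs. It read 8.72, 8.41 and 8.27 in heterozygotes and 7.35, 7.03 and 7.67 in nulls, with no overlap. Its change of -1.11 ± 0.21 had an adjusted p of 0.0525 in limma and 0.00922 with the block, while a second, dim probe set gave 0.12 ± 0.17. The RefSeq gene models of Hoxa11 and Hoxa11os overlap, and the labelled cDNA was double-stranded, so RNA from the shared stretch cannot be assigned to a strand. Hoxb5os (-0.45 ± 0.21) and Hoxd3os1 (-0.23 ± 0.41), the other noncoding RNAs of 10 listed that were measured, did not pass in either fit.

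The 3 Hox genes that fell with the pair as a block are shown by the 250 bases before their RefSeq start sites (GRCm38.p6, 5′ to 3′ on the gene's strand), so that the letters ahead of each gene can be read beside its values. Capitals mark the homeodomain core TAAT on either strand. Hoxd1 lies at chr2:74762730-74762979 (plus strand), Hoxd12 at chr2:74674763-74675012 (plus strand) and Hoxa11 at chr6:52245811-52246060 (minus strand), where the window also lies within the Hoxa11os gene model.
Hoxd1: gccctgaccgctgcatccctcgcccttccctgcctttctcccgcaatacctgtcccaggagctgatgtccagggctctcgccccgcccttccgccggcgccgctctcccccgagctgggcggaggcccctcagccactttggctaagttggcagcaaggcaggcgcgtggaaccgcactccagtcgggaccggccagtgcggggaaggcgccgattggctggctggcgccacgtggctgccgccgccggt
Hoxd12: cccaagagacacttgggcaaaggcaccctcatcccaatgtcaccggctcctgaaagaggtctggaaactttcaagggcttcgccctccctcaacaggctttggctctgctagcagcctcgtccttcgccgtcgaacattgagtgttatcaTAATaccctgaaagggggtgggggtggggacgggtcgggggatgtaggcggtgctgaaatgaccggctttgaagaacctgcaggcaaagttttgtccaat
Hoxa11: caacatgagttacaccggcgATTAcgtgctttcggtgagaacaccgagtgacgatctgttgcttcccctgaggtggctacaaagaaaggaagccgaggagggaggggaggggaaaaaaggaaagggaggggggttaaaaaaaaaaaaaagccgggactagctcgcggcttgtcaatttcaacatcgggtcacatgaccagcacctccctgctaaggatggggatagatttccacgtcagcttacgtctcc
The stretches before Hoxa11 and Hoxd12 each held 1 match to TAAT and that before Hoxd1 held 0. The paired-domain core GTCANGC, searched on both strands, and the posterior Hox core TTTAT each had 0 matches in all 3. The Hoxd1 stretch was 71.6% G and C with 24 CpG pairs, against 55.6% and 10 for Hoxd12 and 52.0% and 13 for Hoxa11. RefSeq start sites were matched for 19 of the 33 Hox genes, in 21 windows. Among these, 16 held TAAT, 7 held TTTAT and 2 held GTCANGC, where 54.9%, 37.3% and 8.79% of all 32851 windows of that length did. Matches of different motifs may overlap, and a match is a description of letters only.

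On the anterior side of cluster A, the 5 genes of groups 2 to 7 were higher in null within all 3 pairs, with a median change of 0.59. Of all 18194 genes tested, 3476 were higher within all 3 pairs. Hoxa4, a group 4 gene of the neck and upper trunk, read 7.14, 6.08 and 6.39 in heterozygotes and 7.04, 7.14 and 8.13 in nulls. The genotypes overlapped, since heterozygote 1 was as high as the lower nulls, but within pairs the null array was higher by 0.995, 0.96 and 0.75. The change of 0.90 ± 0.36 did not pass in limma (adjusted p = 0.452) and rose with the block (adjusted p = 0.0154, and 0.0154 to 0.855 across the alternatives). It also passed with the block among single probe sets (adjusted p = 0.0373), whereas its other probe set, of a type that can cross-hybridize, had a change of 0.45 ± 0.18.

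Hoxa5, known for lung and trunk patterning, read 8.96, 9.61 and 9.96 against 10.32, 10.37 and 10.07. Hoxa2, the hindbrain and second-arch regulator, read 6.70, 7.28 and 7.43 against 7.57, 7.88 and 7.74. Hoxa7, a trunk gene, read 7.93, 8.40 and 8.52 against 8.71, 9.10 and 8.64. In these 3 genes every null array was above every heterozygote array, and heterozygote 1 was the lowest of all. Their changes of 0.75 ± 0.26, 0.59 ± 0.22 and 0.53 ± 0.21 did not pass without or with the block (adjusted p = 0.331 in limma and 0.0698 for Hoxa5, 0.388 and 0.137 for Hoxa2, 0.452 and 0.0855 for Hoxa7). Hoxa3 had 4 probe sets, all positive, with changes from 0.42 to 0.93. The median change of cluster A was 0.51, and 0.12 without heterozygote 1.

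Cluster C held the largest rise. Hoxc5, a central gene of this cluster, was covered by 3 probe sets, and all 3 were higher on every null array than on any heterozygote array. The probe set with the highest mean, which represents the gene, read 8.36, 9.72 and 9.54 against 10.82, 11.05 and 10.19, a change of 1.48 ± 0.38 or 2.79-fold. It did not pass in limma (adjusted p = 0.146), with heterozygote 1 more than a log2 unit below the other heterozygotes, and rose with the block (adjusted p = 0.0118) with within-pair differences of 1.82, 1.10 and 1.51. The second probe set read 9.35, 9.20 and 9.23 against 10.52, 10.52 and 10.71, a change of 1.32 ± 0.15, and the third read 8.16, 8.65 and 8.32 against 9.67, 9.90 and 9.62, a change of 1.35 ± 0.18.

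When every probe set was tested on its own, both of these passed over 45037 probe sets without a block (adjusted p = 0.0140 in limma and 0.0269), and they were the only Hox probe sets that did. In that test 0.391% of all probe sets passed higher and 0.300% lower. With the block, all 3 Hoxc5 probe sets and 1 of Hoxa4 rose and that of Hoxd1 fell, where 1.02% and 0.695% of all probe sets did. The mean over the 3 probe sets had a change of 1.38 (adjusted p = 0.00980 in limma). Without a block, the call of Hoxc5 therefore turned on which probe set stood for the gene, and its adjusted p over the alternatives ran from 0.00980 to 0.403.

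**Figure D3:**
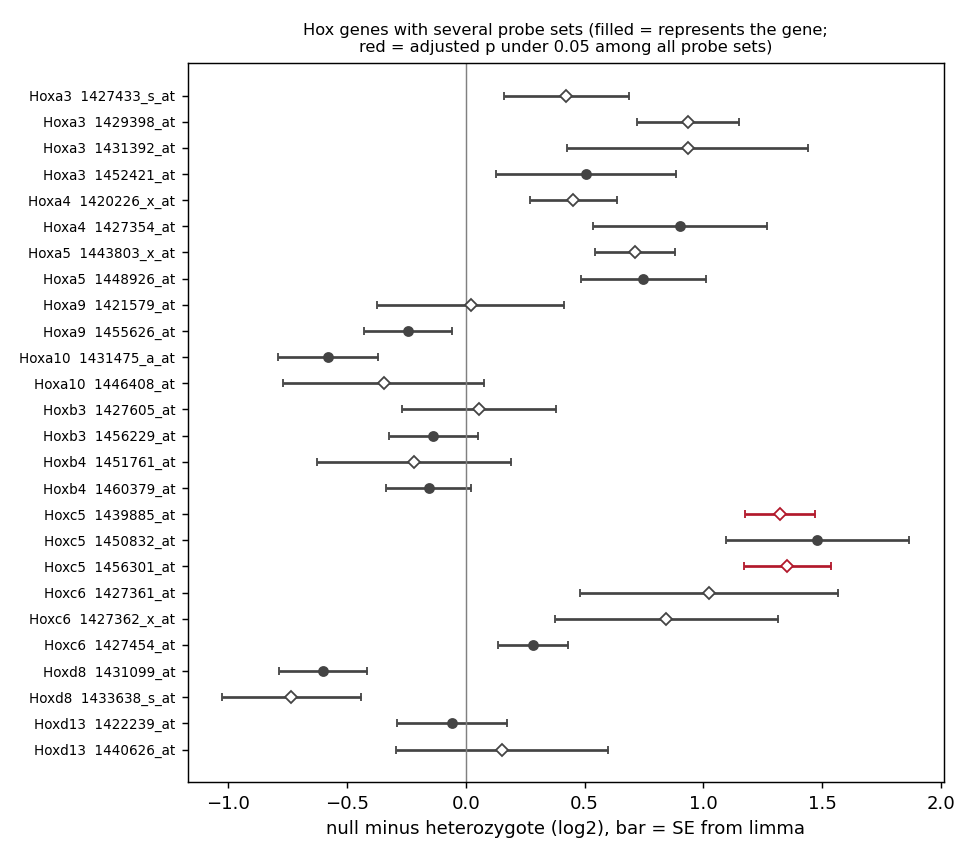
Change from heterozygote to null (log2, with the SE from limma) of each probe set of the Hox genes that have several; filled points represent the gene, and red marks an adjusted p under 0.05 over all probe sets. The 3 probe sets of Hoxc5 lie together between 1.32 and 1.48, and the 2 red ones have the shorter bars, whereas the probe sets of Hoxa9, Hoxb3 and Hoxd13 lie on both sides of 0.

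The neighbours of Hoxc5 were also higher in null. Hoxc4 read 9.75, 9.87 and 9.53 against 10.23, 9.97 and 10.44, and Hoxc6 read 6.66, 6.61 and 6.77 against 6.95, 7.05 and 6.89, in both cases without overlap. Their changes of 0.49 ± 0.18 and 0.28 ± 0.14 did not pass (adjusted p = 0.388 in limma and 0.638, and 0.0895 and 0.209 with the block), and the other 2 probe sets of Hoxc6 gave 1.02 and 0.84 with overlapping arrays. Hoxc8 (0.34 ± 0.19) and Hoxc9 (0.39 ± 0.30) had overlapping arrays and did not pass. Hoxc10, a group 10 gene, read 10.97, 11.58 and 11.45 against 11.42, 10.97 and 10.68, a change of -0.31 ± 0.24 that did not pass (adjusted p = 0.884 in limma, and 0.227 with the block). Hoxc13 was dim on all arrays, between 2.82 and 3.01. The median change of cluster C was 0.34, and 0.21 without heterozygote 1.

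In cluster B the median change was -0.14, and 1 of 9 genes had no overlap between genotypes. Leaving out heterozygote 1 moved that median to -0.24 and leaving out heterozygote 2 to -0.021. It was -0.26 when null 1 was left out and -0.074 when null 2 was. The gene without overlap was Hoxb13, a marker of the tail end of the embryo and of the hindgut, which read 5.96, 5.65 and 5.55 in heterozygotes and 6.25, 6.02 and 6.99 in nulls. Null 3 was the highest array, and the change of 0.70 ± 0.26 did not pass (adjusted p = 0.407 in limma, and 0.0641 with the block). Hoxb13 lies apart from the rest of its cluster, next to Hoxb9, which had a change of 0.066 ± 0.27. At the other end, Hoxb1, a hindbrain regulator, read 8.59, 9.65 and 9.28 against 8.80, 8.31 and 8.24, and its change of -0.72 ± 0.29 did not pass either (adjusted p = 0.445 in limma, and 0.0679 with the block).

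Hoxb2 had a change of -0.40 ± 0.19, lower in all 3 pairs, and Hoxb3, Hoxb4, Hoxb5 and Hoxb6 had changes from -0.16 to -0.10. Hoxb7, whose promoter is widely used to mark the nephric duct, read 6.64, 8.21 and 7.24 in heterozygotes and 7.34, 6.90 and 6.64 in nulls. Heterozygote 2 was the highest array, the genotypes overlapped, and the change of -0.40 ± 0.38 became 0.024 without that array (adjusted p = 0.928 in limma with all arrays and 0.309 with the block).

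**Figure D4:**
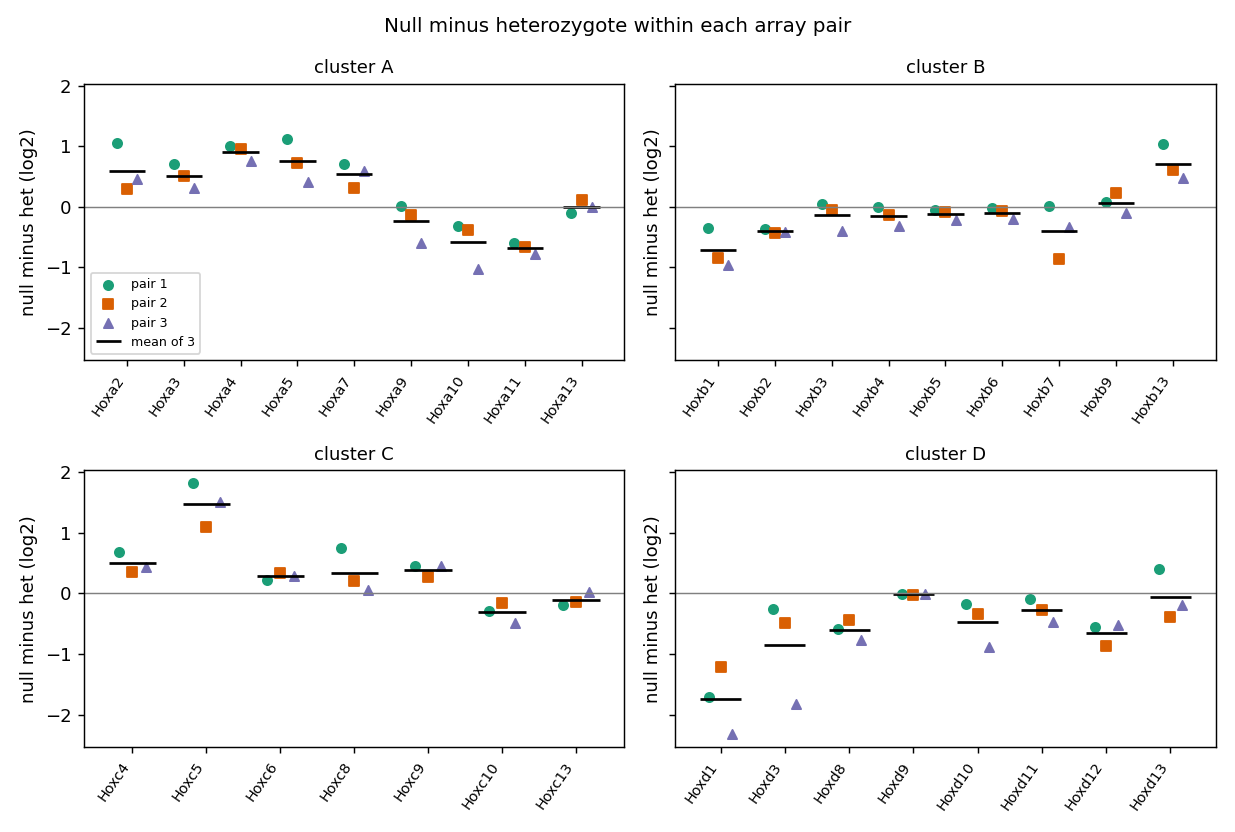
Null minus heterozygote value (log2) within each of the 3 array pairs for every Hox gene, by cluster in paralogue order; the black line is the mean of the 3. In cluster A the points lie above 0 from Hoxa2 to Hoxa7 and below it for Hoxa10 and Hoxa11, in cluster B most lie near 0, Hoxc5 stands out in cluster C, and in cluster D 7 of 8 genes have all points below 0.

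Across the clusters, paralogues did not share a direction throughout. The 3 group 10 genes were lower in all pairs, with a median change of -0.47, and so were both measured group 11 genes, Hoxa11 and Hoxd11. The other probe set of Hoxa10 was not, with within-pair differences of 0.21, -0.15 and -1.09. Of all 18194 genes tested, 4268 were lower in all pairs. In group 5, Hoxa5 and Hoxc5 were higher and Hoxb5 was at -0.12 ± 0.18. Group 1 held the 2 lower genes Hoxd1 and Hoxb1, and group 13 ran from -0.10 to 0.70. By class, groups 1 to 3 had a median change of -0.40 (0.055 when probe sets counted singly, since Hoxa3 then counts 4 times), groups 4 to 8 of 0.31 and groups 9 to 13 of -0.17. Without null 1 the first was -0.27, and the last was -0.11 without heterozygote 2 and -0.12 without null 3. Across genes, change and paralogue number had a Spearman rho of -0.018 over all 33 genes, of -0.72 in cluster A (9 genes), 0.82 in B (9), -0.79 in C (7) and 0.60 in D (8). These are descriptions across genes measured on the same 6 arrays, and their opposite signs between clusters mean that no single slope described the set.

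Hox values also differed between array pairs. In 18 of 33 Hox genes (54.5%) the range of the 3 pair means exceeded the genotype change, a smaller share than the 80.1% of all genes. A range of 3 pair means and a difference of genotype means are unlike measures, so this count alone does not show a pair effect. After the genotype means were removed, the arrays of a pair correlated at 0.618 to 0.874 over the Hox genes, and arrays of different pairs and genotypes at 0.290 or less. Deviations within a genotype cancel out for each gene, so positive correlations within pairs hold those between pairs down on average. Pair 1 was lower than the mean of the others in 20 Hox genes (60.6%, against 41.5% of all genes). Its offset was -1.01 in Hoxa3 and Hoxc5, -0.996 in Hoxd11 and -0.78 in Hoxb7 and Hoxc9, and on the other side 0.97 in Hoxa4 and 0.79 in Hoxd1. The offset could differ between probe sets of a gene. For Hoxa3 it was -1.24, -1.01, -0.41 and 0.63 in the 4 probe sets, for Hoxa10 0.30 and -0.73, and for Hoxc5 -1.01, -0.24 and 0.16. The genotype change kept its sign in all probe sets of these 3 genes. It did not in Hoxa9, Hoxb3 and Hoxd13, whose offsets also differed between probe sets. Their probe sets had genotype changes of -0.24 and 0.021, -0.14 and 0.055, and -0.058 and 0.15, in that order. What sets the arrays of pair 1 apart was not tested.

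**Figure D5:**
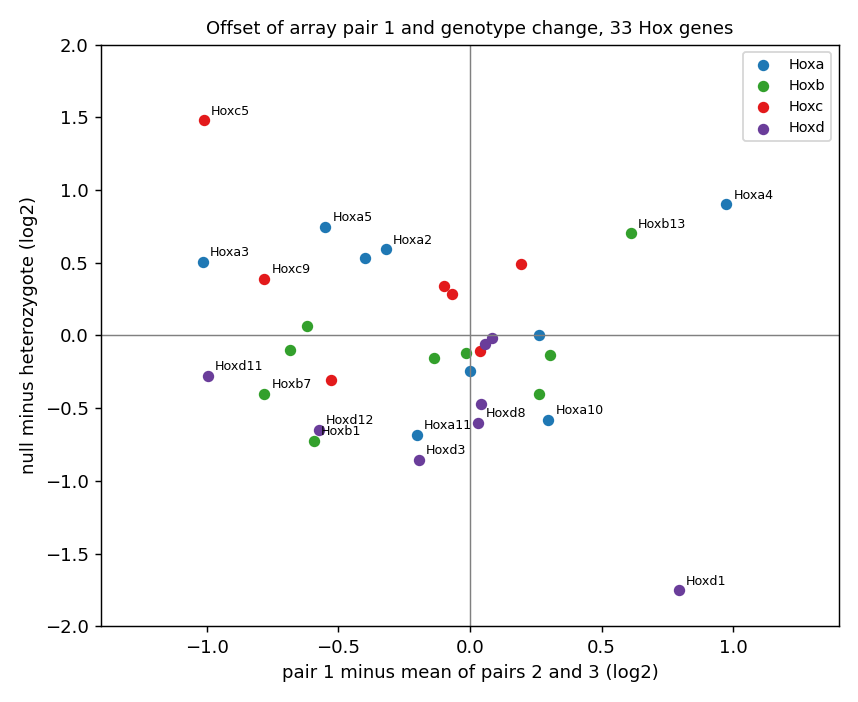
Genotype change (vertical, log2) against the offset of array pair 1 from the mean of pairs 2 and 3 (horizontal, log2) for the 33 Hox genes, coloured by cluster. Hoxc5, Hoxa3 and Hoxd11 lie about a log2 unit to the left and Hoxa4 and Hoxd1 to the right, so that for these genes the spread between pairs entered the error of the unblocked fit.

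Genes that work with or on the Hox clusters were read from lists. Among 8 measured cofactors of 9 listed, the Pbx, Meis and Pknox genes whose proteins bind DNA together with Hox proteins, all 8 changes were positive, with a median of 0.31 against -0.019 over all genes. None passed in limma (1 was higher at an unadjusted p under 0.05, against 5.08% of all genes). With the block Pknox2 rose (0.79 ± 0.19, with an SE of 0.13 and adjusted p = 0.0346 in the blocked fit). Among 17 measured genes of the caudal factors and of retinoic acid, a signal that activates anterior Hox genes, the receptor Rarg rose (1.01 ± 0.18, adjusted p = 0.0418 in limma). With the block Rxra also rose (0.76 ± 0.24, with an SE of 0.13 and adjusted p = 0.0369 in the blocked fit). The retinoic acid synthesis enzyme Aldh1a3 fell with the block (-1.47 ± 0.29, with an SE of 0.22 and adjusted p = 0.0285 in the blocked fit). Tested singly without the block, the other 2 probe sets of Aldh1a3 fell too, by -1.75 ± 0.22 and -3.28 ± 0.39 (adjusted p = 0.0213 and 0.0166 in limma over all probe sets). The other synthesis enzymes listed, Aldh1a1 (0.79 ± 0.53) and Aldh1a2 (0.43 ± 0.17), had positive changes and passed in neither fit. Aldh1a2 was the brighter, with a mean over all arrays of 11.07 against 6.10 for Aldh1a3. Fgf8, a growth factor of the tail bud, differed by -0.53 ± 0.16 and passed in neither fit. Cdx1, Cdx2 and Cdx4, which activate posterior Hox genes in the early embryo, were dim.

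Of 20 measured Polycomb genes, which keep silent Hox genes off, 1 fell and 0 rose, against 0.583% and 0.808% of all genes. This was Phf19, a subunit that guides Polycomb repressive complex 2 to chromatin, from 8.64 ± 0.040 to 7.06 ± 0.28 (SD, n = 3 each), a change of -1.58 ± 0.18 (adjusted p = 0.00861 in limma, and 0.00911 with the block). Its other probe set had a change of -1.25 ± 0.44. Of 8 Trithorax genes, which keep active Hox genes on, 0 passed in limma in either fit, and 0 had an unadjusted p under 0.05 without the block. In a list of 4 kidney genes, Gdnf (-2.01 ± 0.17), a target of Hox11 proteins with Eya1, and Eya1 itself (-1.04 ± 0.17), their partner, fell in both fits. Six2, another target, fell with the block alone (-1.13 ± 0.30, with an SE of 0.15 and adjusted p = 0.0190 in the blocked fit). Itga8, the integrin chain of the mesenchyme, had a change of -0.034 ± 0.24.

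Beyond the ends of the clusters, 0 of 14 listed neighbours passed in limma. At an unadjusted p under 0.05, 2 were higher and 2 lower, against 5.08% and 4.65% of all genes. Skap1, the next coding gene after Hoxb1, fell with the block (-1.38 ± 0.41, with an SE of 0.10 and adjusted p = 0.00642 in the blocked fit). Its other 2 probe sets had changes of -0.35 and -0.34. Mtx2, next to Hoxd1, had a change of -0.37 ± 0.14 (adjusted p = 0.409 in limma) beside -1.75 for Hoxd1. Skap2, next to the anterior end of cluster A, had a change of 0.44 ± 0.17 (adjusted p = 0.407), and Evx1, a homeobox gene next to Hoxa13, was dim in both genotypes.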

How the data were processed

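RNA came from sorted EGFP-positive cells. Per the labels' protocols, cDNA amplified from 10 ng of total RNA (NuGEN WT-Pico Ovation) was made double-stranded, end-labelled with biotin and hybridized to 1-colour arrays. The deposited values are log2 values, 1 per probe set and array. The submitters' processing notes name affy, RMA and limma and no version of any, and their settings were not found in the labels. RMA equalizes probe-level values between arrays before it summarizes them by probe set, and compresses differences between dim probe sets.

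Of 45101 probe sets, 64 were array controls, 34958 had exactly 1 symbol in the platform annotation, 932 had several and 9211 were unlisted. For each gene the probe set of highest mean value was used, unfiltered. Null was tested against heterozygote in R 4.3.3 by limma 3.58.1 (two-sided, eBayes after lmFit, no covariates), with Benjamini-Hochberg adjustment over 18194 genes and a threshold of 0.05. The fit was also run on simulated data. Noise there was independent between arrays, so that run did not test the fits under the pair differences seen here.

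The labels give no batch. The 14 bacterial hybridization controls matched the arrays into 3 pairs without reference to genotype, the best of 15 matchings having a total distance of 1.94 and the second best 5.05. Across all genes, deviations from the genotype means correlated at 0.377 to 0.628 within pairs and at most 0.0972 between them. The low values between pairs are no separate evidence, since deviations within a genotype cancel out for each gene. The pair was used as a block in an alternative fit. The other alternatives were 2 priors, a filter, 2 normalizations, other ways to combine probe sets, a threshold of 0.10 and omission of each array.

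The Hox genes, the lists and the rule for genes described in full were chosen with earlier results of these data known. That rule took Hox genes that passed in either fit or whose arrays did not overlap, and fixed members of groups 7, 10, 11 and 13. From other lists up to 4 genes were named, from those with the smallest p. Dim members, Cdx genes, Aldh1a1 and Aldh1a2 were named after their values were seen. Pax2 itself is not analysed here.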

Additional observations from a re-analysis of the deposited data

How the results depend on the processing

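Signs were kept by 25 of the 33 Hox genes under every alternative, and of 526 comparisons of a Hox gene with its value in the unblocked fit, 20 changed sign. Many of these comparisons could not change sign. The 2 priors, the filter, the threshold of 0.10 and the pair block leave the change as it was. So do the other ways to combine probe sets for the 22 genes with 1 probe set. Tests of single probe sets took that with the smallest p for each gene. Hoxa9 and Hoxb3 thus count as kept, though their other probe sets had changes of 0.021 and 0.055. Renewed quantile normalization moved Hoxa13 to -0.0033 and median centring to -0.029. Hoxd13 moved to 0.047 with the mean over its probe sets, and to 0.15 by its probe set with the smallest p, without the block or with it. With 1 array left out, the change spanned -0.083 to 0.11 for Hoxa13, -0.23 to 0.011 for Hoxb5, -0.34 to 0.11 for Hoxb6, -0.76 to 0.024 for Hoxb7, -0.14 to 0.29 for Hoxb9, -0.10 to 0.060 for Hoxd9, -0.66 to 0.0065 for Hoxd11 and -0.19 to 0.15 for Hoxd13.

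No Hox gene passed higher without the block, but 1 did with the mean over probe sets and 2 probe sets did singly. Hox genes that passed lower numbered 1 with the intensity-dependent prior, the filter, the mean over probe sets or the threshold of 0.10, and 0 to 1 with 1 array left out. The pair block gave 2 higher and 3 lower, and with every probe set on its own, an alternative chosen after seeing the data, 4 probe sets were higher and 1 lower among 772 changed probe sets. Over all genes, 405 passed at 0.10, 824 with the pair block and 84 to 318 with 1 array left out. Counted by probe set, the median change was 0.011 over all Hox probe sets, 0.49 in cluster C, 0.055 in the anterior and 0.47 in the central class. Medians with 1 array left out spanned -0.14 to -0.057 over all Hox genes, 0.12 to 0.65 in cluster A, -0.26 to -0.021 in cluster B, 0.21 to 0.44 in cluster C and -0.50 to -0.27 in the anterior class. The labels give no replicate numbers that pair the samples. The filter left out Hoxa13 and Hoxc13. Precision is limited by 3 arrays per genotype.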
